A study of Mus musculus with 15 samples.

Results

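The genes followed here in mouse liver and lung hold epithelial cells together and were chosen by name: 8 claudins (Cldn1, Cldn2, Cldn3, Cldn4, Cldn7, Cldn12, Cldn14 and Cldn18), the adherens junction gene Cdh1 and the tight junction gene Ocln. All 10 were found once each among the 54532 genes of the count matrices. The RNA came from whole tissue of male wild-type C57BL/6J mice, an inbred laboratory strain, fed a control diet (CS) or the same diet with 2% phytosterols (PS), which are plant sterols related to cholesterol. The labels give 28 weeks as the age of the mice, a figure that the text of the study uses for the length of feeding. Livers of 4 CS and 5 PS mice and lungs of 3 CS and 3 PS mice were sequenced, 1 library per mouse and tissue, and 6 of the 9 mice gave both tissues. The study used males of a single strain and bulk tissue, so that in every comparison fewer cells of a type and less RNA per cell cannot be told apart.

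Claudins are small membrane proteins that pair across the gap between neighbouring cells and form the strands of the tight junction. Some of them seal the junction and others form pores for ions and water, so the set of claudins that a tissue expresses helps to set what its epithelium lets through. Cldn2 is a cation and water pore found in hepatocytes and other leaky epithelia, Cldn1 and Cldn3 are sealing claudins, and Cldn18 is known from the alveolar epithelium and the stomach. Occludin, the product of Ocln, is a further strand protein of the tight junction, and E-cadherin, the product of Cdh1, is the calcium-dependent adhesion molecule of the adherens junction beneath it.

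Total counts ranged from 14410117 to 17625179 per liver and from 17934930 to 19396057 per lung. The labelled tissues were checked against their markers, as CPM, counts relative to the library size scaled within each tissue. The 5 hepatocyte markers summed to between 68834 and 110332 CPM in livers and to between 0.463 and 87.5 CPM in lungs, while the surfactant gene Sftpc lay between 12878 and 27052 CPM in lungs and did not exceed 0.704 CPM in livers. A pair of livers stood apart from the others, with the fewest genes detected (15961 in CS replicate 2 and 16207 in PS replicate 1, against 18250 to 19598). In CS replicate 2 the 5 B cell markers also summed to 134 CPM, against 5.13 to 13.3 CPM in the other livers, and its counts rose with the GC content of the gene. The liver results of the members that passed a filter on low counts are given with and without both libraries. Cldn4, under that filter, is given without single libraries only. In lung a trend with GC content went with the diet: the genes of the highest GC quartile, relative to the lowest and to the mean of the lungs, stood at -0.19 to -0.10 on the log2 scale in CS and at -0.01 to 0.30 in PS lungs.

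The stretch before the start of transcription is shown for the 3 member claudins with the largest tissue differences (Cldn18, Cldn14 and Cldn2) and for Cldn3, abundant in both tissues, 250 bases each from RefSeq on build GRCm38.p6, 5' to 3' on the strand of the gene. Sequences were found for 9 of the 10 members. The reference used had no promoter entry for Cdh1, so its promoter was not searched. For a gene with several starts the one nearest the 5' end of the gene model was taken. Capitals mark a TATA box (TATAAA) or a GC box (CCGCCC), each searched on both strands. The counts are of whole genes and do not tell the starts of Cldn14 or Cldn18 apart.

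Cldn18, chr9:99717268-99717517, minus strand, with 1 count in all livers together: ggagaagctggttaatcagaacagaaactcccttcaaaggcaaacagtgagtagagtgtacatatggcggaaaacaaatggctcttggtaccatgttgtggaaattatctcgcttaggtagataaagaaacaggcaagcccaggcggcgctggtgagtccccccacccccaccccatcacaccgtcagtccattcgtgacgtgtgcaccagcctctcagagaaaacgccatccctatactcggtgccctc

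Cldn14, chr16:94008838-94009087, minus strand, with no count in lung: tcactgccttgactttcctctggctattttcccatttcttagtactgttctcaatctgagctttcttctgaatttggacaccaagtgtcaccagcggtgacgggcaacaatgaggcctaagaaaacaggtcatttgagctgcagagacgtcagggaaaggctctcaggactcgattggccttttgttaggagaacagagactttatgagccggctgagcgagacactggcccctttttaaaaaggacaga

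Cldn2, chrX:139800558-139800807, plus strand, the member claudin with the next largest excess in liver: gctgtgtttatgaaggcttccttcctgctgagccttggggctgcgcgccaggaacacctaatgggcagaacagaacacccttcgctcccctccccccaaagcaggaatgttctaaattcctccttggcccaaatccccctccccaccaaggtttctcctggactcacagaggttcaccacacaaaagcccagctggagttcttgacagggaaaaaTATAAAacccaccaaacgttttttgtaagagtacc

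Cldn3, chr5:134985964-134986213, plus strand, with the smallest tissue difference of the 8 claudins: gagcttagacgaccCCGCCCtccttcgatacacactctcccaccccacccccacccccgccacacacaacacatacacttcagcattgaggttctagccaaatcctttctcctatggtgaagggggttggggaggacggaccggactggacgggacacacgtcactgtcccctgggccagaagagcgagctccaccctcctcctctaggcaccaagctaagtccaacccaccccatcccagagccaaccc

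Cldn2 had a TATAAA match, which 12.4% of all 32851 promoter windows of this length held, and none of the other 8 members did. A CCGCCC match, present in 32.7% of all windows, was found before Cldn1, Cldn3, Cldn4 and Ocln. The E-box CACCTG, the letters bound by the repressors Snai1 and Snai2, stood before Cldn4 alone among the nearest starts of the 9 members searched and in 17.2% of all windows. It also stood before further starts of Ocln, Cldn7 and Cldn14. The letters AACCNGTT, a binding motif of grainyhead factors, were in none of the windows of these 9 and in 1.79% of all windows. CACCTG and CCGCCC are distinct stretches and did not overlap in the Cldn4 window.

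The first question was which claudins make up the claudin pool of each tissue. Counts were divided by gene length and expressed as the share of all 33 genes named as claudins in each library, which needs no scaling between libraries. The 8 member claudins made up 96.9% ± 1.51 (SD, n = 9) of this signal in liver and 34.0% ± 3.70 (SD, n = 6) in lung. In liver Cldn3 held 69.1% ± 11.8 of the signal, followed by Cldn2 with 11.1% ± 6.42, Cldn12 with 7.97% ± 3.22, Cldn1 with 6.21% ± 2.46 Cldn5, not one of the 10 genes, with 2.70% ± 1.49 and Cldn14 with 2.22% ± 0.414 (SD, n = 9 each). Cldn2, Cldn12 and Cldn1, neighbours in this order, overlapped within their spread, and so did Cldn5 and Cldn14, with Cldn5 above Cldn14 in CS livers (4.03% and 2.33%) and below it in PS livers (1.63% and 2.13%). Cldn7 and Cldn4 stayed at 0.235% ± 0.140 and 0.0566% ± 0.0827, and Cldn18 had 1 count in all 9 livers.

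In lung the largest share was that of Cldn5, the claudin of endothelial cells and not one of the 10 genes, with 63.2% ± 4.38 (SD, n = 6). Cldn3 and Cldn18 followed with 15.3% ± 3.01 and 13.4% ± 2.07, and did not differ beyond their spread. The order of the means of this pair turned with the diet, with Cldn3 at 13.8% and Cldn18 at 15.1% in CS and at 16.7% and 11.8% in PS lungs, and with the division by length, as Cldn18 held 31.7% and Cldn3 10.3% of the undivided counts. In CS replicate 3, however, Cldn3 (16.0%) was above Cldn18 (15.1%). The shares were not corrected for the trend with GC content that went with the diet in lung. Cldn7 held 3.72% ± 0.767, Cldn12 0.653% ± 0.149, Cldn4 0.476% ± 0.196, Cldn1 0.387% ± 0.123 and Cldn2 0.0188% ± 0.0123 (SD, n = 6 each), and Cldn14 had no count in any lung. Among the 8 member claudins alone, Cldn3 made up 44.8% ± 6.67 and Cldn18 39.7% ± 5.60 of the lung signal. Cldn10, also not one of the 10 genes, reached 1.42% ± 0.411 in lung. Endothelial markers were abundant in lung, where the 6 of them, Cldn5 included, summed to between 2597 and 3411 CPM, against 22.0 to 67.3 CPM in liver.

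**Figure D1:**
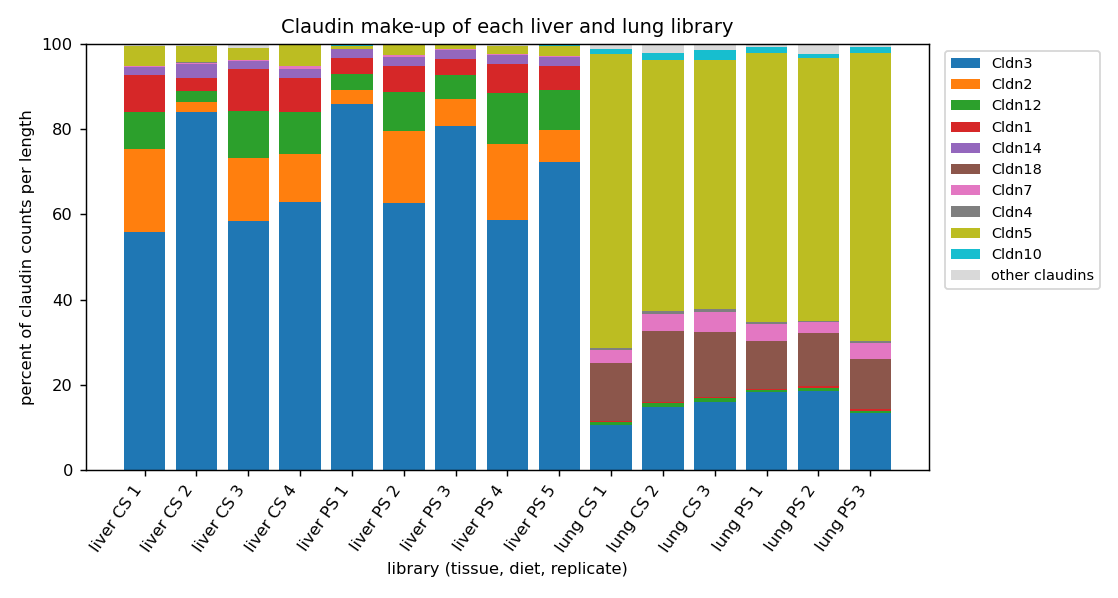
Share of each claudin in the counts per length of all claudin genes (y axis, percent) in each of the 15 libraries (x axis, tissue, diet and replicate). Cldn3 fills 55.9% to 85.8% of the bars of the livers, and Cldn5 and Cldn18 fill 58.5% to 69.1% and 11.2% to 16.6% of the bars of the lungs.

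The make-up of the livers varied most in Cldn3 and Cldn2. The share of Cldn3 was 55.9%, 84.0%, 58.5% and 63.0% in CS replicates 1 to 4 and 85.8%, 62.7%, 80.8%, 58.7% and 72.3% in PS replicates 1 to 5. The share of Cldn2 was 19.4%, 2.41%, 14.8% and 11.2% in CS livers and 3.40%, 16.8%, 6.39%, 17.8% and 7.62% in PS livers. The livers rich in Cldn3 were poor in Cldn2, both diets spanned this range, and CS replicate 2 and PS replicate 1 lay at its end. Of the members Cldn3 has the highest GC content (62.7%) and Cldn1 the lowest (39.0%), and Cldn2 lies between them (48.8%). In lung the share of Cldn18 was 13.6%, 16.6% and 15.1% in CS and 11.2%, 12.4% and 11.8% in PS mice, so that the ranges of the diets did not overlap. The shares of Cldn2 and Cldn4 lay wholly lower in PS lungs as well. In CPM the diets overlapped in Cldn18, and PS lungs lay wholly below CS lungs in 18.8% of all genes. The shares were not tested, since shares of 1 pool move together.

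Lung was then compared with liver in a single edgeR fit over all 15 libraries, with a mean for each tissue and diet. Of the 10 members 5 were higher in lung and 5 lower at an adjusted p under 0.05. The tissues differ in most genes: 42.3% of the 17696 genes tested were higher in lung and 34.4% lower, with a median log2 fold change of 0.17 over all genes, so the sizes tell more than the calls. That median moved between -0.32 and 0.54 with the scaling and filter used.

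Cldn18, a claudin of alveolar epithelium, differed most. It had between 6656 and 12626 counts in each lung and 0 counts in 8 of the 9 livers, with 1 count in PS replicate 3. On a scale common to both tissues this was a lung mean of 285 CPM ± 55.4 (SD, n = 6) and a ratio of 28445 to the pooled livers, with a 95% counting interval from 5105 to 1123527. The interval is wide because it rests on that 1 count, and it covers counting error only. By the size of its fitted log2 fold change (14.47), Cldn18 ranked 21st of all genes tested.

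Cldn7, Cldn4 and Cdh1 were the other members with a large excess in lung. Cldn7, a claudin of many epithelia, had a log2 fold change of 5.10 (SE 0.32, adjusted p = 2.09e-10), from 593 to 1446 counts per lung and 2 to 23 per liver. Cldn4, a sealing claudin of tight epithelia, had a log2 fold change of 4.52 (SE 0.56, adjusted p = 1.45e-06) and between 0 and 14 counts per liver, and over the fits that left out a library this value ranged from 4.35 to 6.17, the highest without PS liver replicate 2, the only PS liver with a count. Cdh1 was 8.95-fold higher in lung (log2 3.16, SE 0.23, adjusted p = 2.08e-09). Ocln differed little, with a log2 fold change of 0.81 (SE 0.16, adjusted p = 0.000253), and its call was lost when each library's trend with gene length was removed (0.28, adjusted p = 0.113).

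The other 5 members were lower in lung. Cldn14, a claudin known from the inner ear and the kidney, had 90 to 211 counts in each liver and 0 in each lung, which makes it at least 713-fold lower in lung, with the floor set at 3 counts over the 6 lungs. Cldn2 had 242 to 1772 counts per liver and 1 to 21 per lung, a log2 fold change of -8.17 (SE 0.54, adjusted p = 4.80e-10). Cldn1 and Cldn12 had log2 fold changes of -2.93 (SE 0.21, adjusted p = 1.26e-09) and -2.50 (SE 0.23, adjusted p = 3.48e-08). Cldn3, the claudin that both tissues had in quantity, differed least of the 5, with -1.14 (SE 0.22, adjusted p = 0.000191). With the mouse as replicate block, over the 6 animals that gave both tissues, all 10 members were called as before, and with GC content corrected as well Ocln was not (0.40, adjusted p = 0.0643).

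The study asked whether phytosterols change gene expression in the liver, and its own selection of lower cell adhesion genes in liver held Cldn1, Cldn4 and Cdh1, so the values of these 3 are not independent evidence of their direction. With the counts of all 9 livers, 8 members passed the filter on low counts, and none had an adjusted p under 0.05, as only 0.00758% of the 13195 genes tested did. DESeq2 and limma called 0 members as well. Cdh1 and Cldn1 were the 2 members lower in PS livers at an unadjusted p of at most 0.05, a level that 3.58% of the genes tested reached in this direction. Their number fell to 1 without CS replicate 1 or 4 or PS replicate 1, 3 or 4 and to 0 without CS replicate 3. The median log2 fold change of the 8 was -0.18, against -0.03 over all genes, with 6 of them below 0. No member had PS values wholly below the CS values, as 1.53% of genes had.

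Cdh1 lay at 22.1, 6.06, 25.1 and 20.2 CPM in CS livers 1 to 4 and at 9.50, 7.90, 8.22, 10.5 and 11.9 CPM in PS livers 1 to 5. The CS livers 1, 3 and 4 were above every PS liver, and CS replicate 2 was below them all. Over all libraries the log2 fold change was -0.93 (SE 0.34, adjusted p = 0.504, edgeR). Without CS replicate 2 it was -1.23 (SE 0.18, adjusted p = 0.0189), and Cdh1 was then among the 0.165% of genes called lower in PS. Without both libraries with the fewest genes it was -1.22 (adjusted p = 0.0363), so the call in liver rests on whether CS replicate 2 is counted. With the trend with GC content removed and all libraries kept it was -0.90 (adjusted p = 0.562).

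Among the CS livers Cldn1 had the same order, with 64.3, 29.1, 69.8 and 52.6 CPM in CS and 32.4, 42.3, 30.7, 36.0 and 43.1 CPM in PS livers. Again CS replicates 1, 3 and 4 were above all PS livers and CS replicate 2 was below them. The log2 fold change was -0.55 (SE 0.24, adjusted p = 0.640) and, without CS replicate 2, -0.76 (SE 0.17, adjusted p = 0.0765). Without both libraries with the fewest genes it was -0.71 (adjusted p = 0.134).

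Cldn4 was under the filter, with 25 counts in all, of which 14 were in CS replicate 2. The 4 CS livers had 2, 14, 2 and 4 counts, and of the 5 PS livers only replicate 2 had any, with 3. A two-sided exact permutation test of the mean CPM (0.356 in CS, 0.0341 in PS) gave p = 0.0238, unadjusted, where 0.00794 is the smallest value possible. Without CS replicate 2 the difference shrank from -0.322 to -0.127 CPM (exact permutation p = 0.125). The exact permutation p was also above 0.05 without CS replicate 4 (0.0536) and without PS replicate 1, 3, 4 or 5 (0.0857 each). Cldn18, with its 1 count, gave no difference to test (exact permutation p = 1.00).

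The remaining members of the liver spread widely within each diet. Cldn2 lay at 97.8, 16.3, 70.7 and 51.1 CPM in CS and at 20.4, 78.6, 37.0, 64.1 and 39.0 CPM in PS livers, with a log2 fold change of -0.30 (SE 0.47). Cldn3 lay at 106, 215, 106 and 109 CPM in CS and at 195, 111, 177, 80 and 140 CPM in PS livers (0.07, SE 0.31). For both genes the diets overlapped over most of their range, and CS replicate 2 and PS replicate 1 were the 2 lowest livers in Cldn2 and the 2 highest in Cldn3. Cldn12 ranged from 22.7 to 66.3 CPM in CS and from 28.7 to 59.9 CPM in PS livers (-0.08, SE 0.30), and Cldn14 from 5.80 to 14.2 and from 5.06 to 8.04 CPM (-0.26, SE 0.29). Ocln, from 6.87 to 13.5 CPM in CS and from 10.3 to 17.0 CPM in PS livers, had a log2 fold change of 0.22 (SE 0.23). Cldn7 had 2 to 23 counts per liver and a log2 fold change of -0.11 (SE 0.59). Without both libraries with the fewest genes the log2 fold changes were -0.42 for Cldn2, 0.25 for Cldn3, -0.18 for Cldn12, 0.08 for Cldn14, 0.12 for Ocln and 0.01 for Cldn7, and none of the 6 passed (adjusted p from 0.603 to 0.997).

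**Figure D2:**
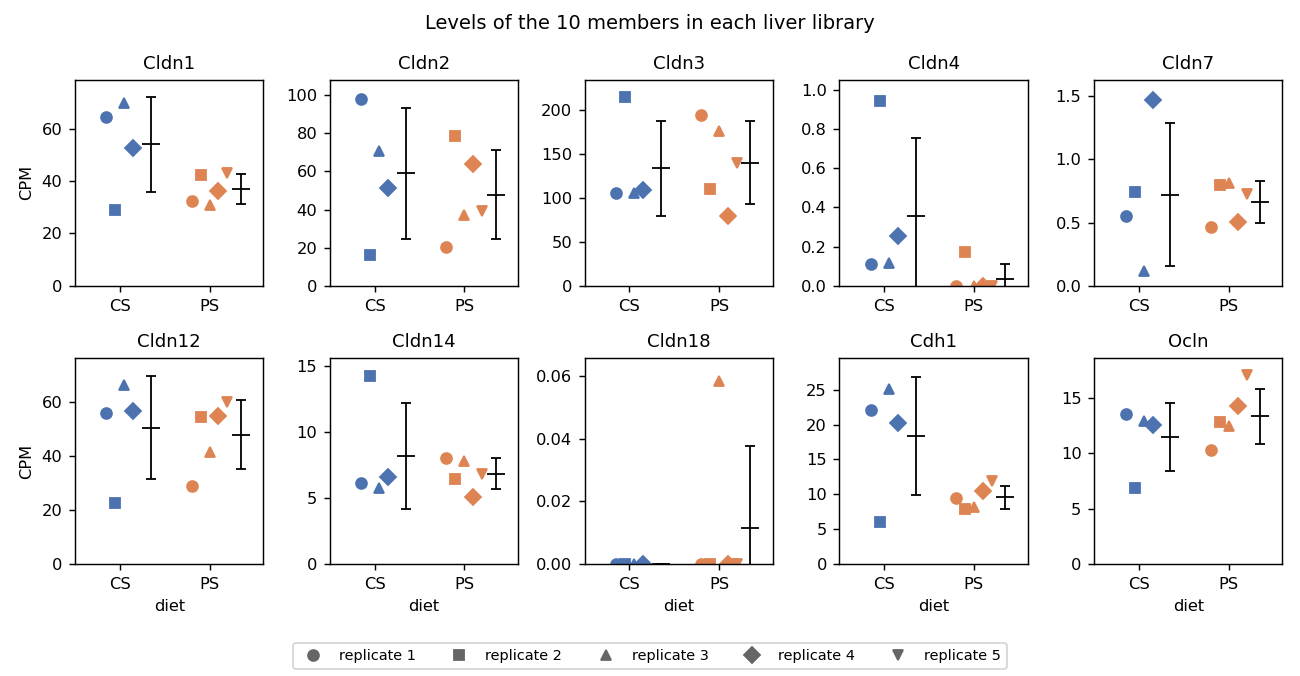
CPM of each of the 10 members (y axes, one panel per gene, starting at 0) in the livers of CS (blue) and PS (orange) mice, with the mean and SD beside the points and a marker shape for each replicate number. In the Cdh1 panel 3 CS livers lie at 20.2 to 25.1 CPM above the PS livers at 7.90 to 11.9 CPM, and CS replicate 2 (square) lies at 6.06 CPM.

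Markers of other liver cells were read beside these values. The 8 cholangiocyte markers, bile duct genes, summed to between 52.2 and 101 CPM in CS and between 44.1 and 97.8 CPM in PS livers, so their range was alike in both diets, and CS replicate 2, the liver with the least Cdh1, had 76.3 CPM. The 5 periportal hepatocyte markers summed to 2572 CPM in CS replicate 2 and to between 4413 and 5846 CPM in all other livers. The 5 pericentral markers likewise had their lowest sum there (8388 CPM, against 11606 to 16798 CPM). The 6 endothelial markers, all with counts in both diets, summed to 49.8 to 67.3 CPM in CS and to 22.0 to 58.8 CPM in PS livers, and Cldn5 among them lay at 5.92 to 10.8 and at 1.70 to 5.24 CPM (log2 fold change -1.42, SE 0.35, adjusted p = 0.232 by edgeR and 0.0128 by DESeq2, and -1.16 without both libraries with the fewest genes). The part of cell composition in the liver values of Cdh1 and Cldn1 was not tested.

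The same question was asked of the lung. There 9 members passed the filter and none had an adjusted p under 0.05, a level that 9.22% of the 16717 genes tested reached. DESeq2 called 1 member, Ocln, and limma 0. At an unadjusted p of at most 0.05 Ocln, Cldn12 and Cldn2 were lower in PS lungs, 3 of 9 members where 14.5% of all genes were. It was 5 members without PS replicate 1 and 1 member without CS replicate 1, CS replicate 3 or PS replicate 2. The members were chosen with earlier results of these data known, so these counts are no evidence of an excess. The PS lungs lay wholly below the CS lungs in 4 members, these 3 and Cldn4, as they did in 18.8% of genes, and wholly above in none. The median log2 fold change of the 9 was -0.32, against 0.01 over all genes.

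Ocln had 70.4, 63.4 and 72.3 CPM in CS lungs and 56.9, 41.0 and 42.7 CPM in PS lungs. All PS lungs were below all CS lungs, and the log2 fold change was -0.55 (SE 0.16, adjusted p = 0.0636, edgeR). It passed at an adjusted p of 0.0296 by DESeq2, 0.0462 with no filter on low counts and 0.0136 without PS replicate 1, and over the alternatives its adjusted p ranged from 0.0136 to 0.213. The sum of the 8 alveolar type 2 markers was 20531 to 21755 CPM in CS and 22454 to 34971 CPM in PS lungs, and that of the 6 alveolar type 1 markers was 4091 to 5089 and 4451 to 5209 CPM. The 5 general epithelial markers, 4 keratins and the adhesion gene Epcam, summed to 805 to 972 CPM in CS and 873 to 1081 CPM in PS lungs, and Epcam alone had 74.4 to 103 and 49.9 to 85.6 CPM. The part of cell composition in the Ocln value was not tested. With each library's trend with GC content removed, the log2 fold change of Ocln was -0.44 (adjusted p = 0.0953).

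Cldn12, a claudin without the usual PDZ-binding tail, varied least between mice of a diet. It had 26.0, 26.6 and 24.9 CPM in CS and 20.4, 19.6 and 20.1 CPM in PS lungs, a log2 fold change of -0.36 (SE 0.14, adjusted p = 0.115). With the trend with GC content removed it was -0.25 (edgeR, unadjusted p = 0.0967, adjusted p = 0.250), so Cldn12 then left the members at an unadjusted p of at most 0.05. Cldn2 was near the limit of detection, with 21, 12 and 15 counts in CS and 9, 1 and 4 in PS lungs (-1.62, SE 0.66, adjusted p = 0.137), and without PS replicate 1 it was -2.53 (adjusted p = 0.0450). Over all alternatives it ranged from -2.53 to -0.21, the latter with limma on log2(FPKM + 1), and its adjusted p from 0.0450 to 0.318. Cldn4 had 8.69, 7.97 and 10.7 CPM in CS and 7.69, 2.46 and 6.62 CPM in PS lungs (-0.71, SE 0.38, adjusted p = 0.245). Ocln, Cldn12, Cldn2 and Cldn4, and Cldn7, Cldn18 and Cdh1 as well, were lowest in PS replicate 2, the lung in which the 4 club cell markers (35436 CPM, against 42774 to 67463 CPM) and the 7 ciliated cell markers (145 CPM, against 299 to 482 CPM) were lowest too. The endothelial markers were also lowest there (2597 CPM), and the mesothelial markers were highest (449 CPM). The part of these cells in the result was not tested.

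Cldn18, the member with the most counts in lung, had 638, 546 and 508 CPM in CS and 538, 372 and 443 CPM in PS lungs. The groups overlapped, and the log2 fold change was -0.32 (SE 0.19, adjusted p = 0.278). Cdh1 had 369, 308 and 325 CPM in CS and 343, 245 and 287 CPM in PS lungs (-0.20, SE 0.17, adjusted p = 0.475). Cldn3 had 141, 138 and 152 CPM in CS and 248, 157 and 142 CPM in PS lungs (0.35, SE 0.21), with PS replicate 1 far above the others, and its log2 fold change was 0.03 with the trend with GC content removed. Cldn7 lay at 58.5 to 68.8 CPM in CS and at 33.1 to 85.6 CPM in PS lungs (-0.09, SE 0.29), and Cldn1 at 11.7 to 16.5 and 12.6 to 19.2 CPM (0.26, SE 0.22).

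**Figure D3:**
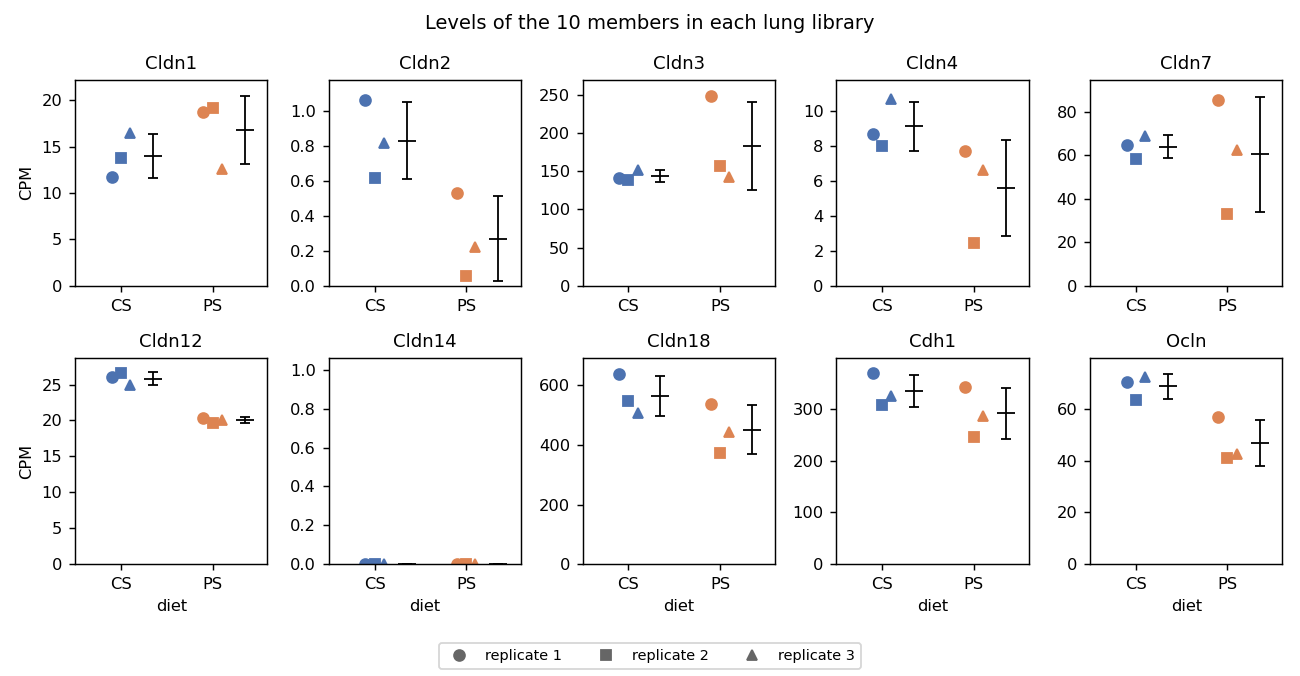
CPM of each of the 10 members (y axes, one panel per gene, starting at 0) in the lungs of CS (blue) and PS (orange) mice, with the mean and SD beside the points and a marker shape for each replicate number. In the Cldn12 panel the CS lungs lie at 24.9 to 26.6 CPM and the PS lungs at 19.6 to 20.4 CPM, and Cldn14 lies at 0 in all 6 lungs.

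Whether the diet acted differently in the 2 tissues was tested as the difference of the diet effects, lung minus liver, in the fit over all libraries. No member had an adjusted p under 0.05, a level reached by 0.0226% of genes, and DESeq2 called 0 as well. Ocln, higher by 0.22 in PS livers and lower by 0.55 in PS lungs on the log2 scale, had a difference of -0.81 (SE 0.33, adjusted p = 0.410), and it was the only member at an unadjusted p of at most 0.05, where 10.9% of all genes were. For Cdh1 the difference was 0.71 (SE 0.46, adjusted p = 0.577) and for Cldn1 0.78 (SE 0.37, adjusted p = 0.461). Cldn14 and Cldn18 had next to no counts in one of the tissues and gave no usable difference. The diet values of Cdh1 were -0.93 in liver and -0.20 in lung, and neither passed the adjustment.

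**Figure D4:**
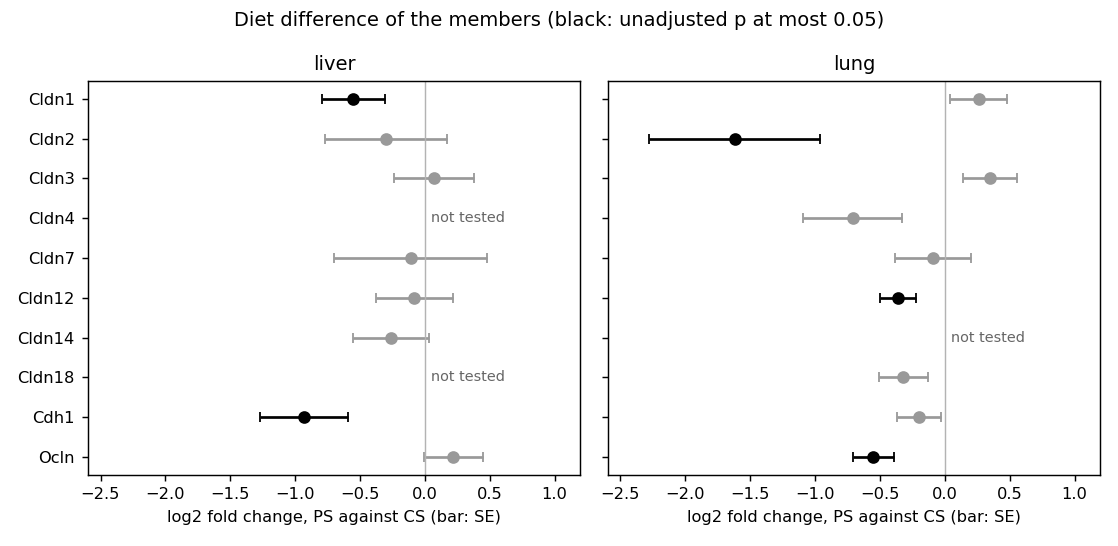
Log2 fold change of each member in PS against CS mice (x axis, bars of 1 SE) in liver (left) and lung (right), with black points for an unadjusted p of at most 0.05. Cdh1 (-0.93) and Cldn1 (-0.55) stand to the left in liver and Cldn2 (-1.62), Ocln (-0.55) and Cldn12 (-0.36) in lung, and none of them passed the adjustment over all genes.

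Claudins and E-cadherin work with scaffold proteins, catenins and desmosomes, and 67 genes of these structures and of their regulators were read beside the members in 5 lists. In liver 56 of the 67 were tested, and none had an adjusted p under 0.05. At an unadjusted p of at most 0.05 edgeR found 3 lower and 2 higher in PS livers, where 3.58% of all genes were lower and 3.96% higher, so that the count of lower genes (5.36%) lay near that of all genes. The 3 with the lowest p were Snai2, a repressor of Cdh1 transcription, Nectin2, an adhesion molecule of the adherens junction, and Ajuba, a protein that binds its catenins. Snai2 had 1.49 to 2.50 CPM in CS and 3.98 to 8.05 CPM in PS livers (log2 fold change 1.65, SE 0.32, adjusted p = 0.114). The PS livers were all above the CS livers, CS replicate 2 included, but Snai2 was named for its low p, so this separation is no further evidence. Its adjusted p was 0.000305 by DESeq2, and from 0.0569 to 0.431 over the edgeR fits that left out a liver. Over the alternatives its log2 fold change ranged from 1.02 to 1.78. Nectin2 had 74.6 to 93.9 CPM in CS and 48.1 to 61.0 CPM in PS livers (-0.63, SE 0.15, adjusted p = 0.227 by edgeR and 0.00174 by DESeq2), and Ajuba 4.67 to 5.57 and 1.93 to 3.81 CPM (-0.81, SE 0.25, adjusted p = 0.404). Over the edgeR fits that left out a liver, the adjusted p of Nectin2 ranged from 0.0648 to 0.623.

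In lung 66 of the 67 were tested, and 7 were lower and 1 higher in PS mice at an adjusted p under 0.05, which is 10.6% lower where 4.43% of all genes were lower and 4.80% higher. The lists were chosen with earlier results of these data known, so a share above that of all genes is no evidence of an excess. Of the 28 tight junction genes 2 were lower, of the 11 adherens junction genes 2 lower and 1 higher, of the 8 desmosome genes 2 lower, of the 14 epithelial regulators tested 1 lower and of the 5 claudin partners 0 by edgeR, with 1 higher in PS at an unadjusted p of at most 0.05. The median log2 fold change of the 66 was -0.13, against 0.01 over all genes.

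Vcl, vinculin, which ties the adherens junction to actin, had the greatest fall, from 54.5 to 70.4 CPM in CS to 4.32 to 10.3 CPM in PS lungs (log2 fold change -3.13, SE 0.30, adjusted p = 0.00777). Ctnnb1, beta-catenin, the direct partner of E-cadherin, fell from 591 to 652 CPM in CS to 225 to 379 CPM in PS lungs (-1.04, SE 0.21, adjusted p = 0.0288), while Ctnnd1, p120-catenin, which stabilises cadherin at the membrane, rose from 97.9 to 106 CPM to 137 to 159 CPM (0.54, SE 0.13, adjusted p = 0.0417). Their partner Cdh1, at -0.20, did not pass.

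Lsr, angulin-1, which marks the corners where 3 cells meet, fell by 1.34 on the log2 scale (SE 0.20, adjusted p = 0.0190), and the scaffold gene Magi3 fell by 1.02 (SE 0.15, adjusted p = 0.0193). The desmosome genes Dsg2 and Dsp fell by 1.18 (SE 0.22, adjusted p = 0.0255) and 1.08 (SE 0.25, adjusted p = 0.0383). Grhl2, a transcription factor that drives Cdh1 and claudin genes, fell by 0.65 (SE 0.16, adjusted p = 0.0402). Ctnnb1, Lsr, Dsg2, Dsp and Grhl2 were lowest in PS replicate 2. That lung had the lowest club, ciliated and endothelial cell markers and the highest mesothelial markers, and the part of these cells in the values was not tested. With the trend with GC content removed all 8 were called (adjusted p from 0.0102 to 0.0457), and Grhl2 was lost with gene length corrected (0.0619) and with limma on log2(FPKM + 1) (0.0630), as was Ctnnd1 with limma (0.0521). Without CS replicate 3 edgeR called 0 genes of the whole table, and without CS replicate 1, CS replicate 2 or PS replicate 2 it called 23, 26 and 9 genes. Of the 8 genes above, Vcl was called without CS replicate 1 (adjusted p = 0.0428) and without CS replicate 2 (0.0283), the other 7 in none of these 4 fits, and Dsp was also lost without PS replicate 1 (0.0515). Over the 6 fits that left out a lung, the log2 fold change ranged from -3.53 to -2.89 for Vcl, from -1.47 to -1.24 for Lsr and from 0.46 to 0.58 for Ctnnd1. With limma on log2(FPKM + 1) that of Vcl was -2.20.

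**Figure D5:**
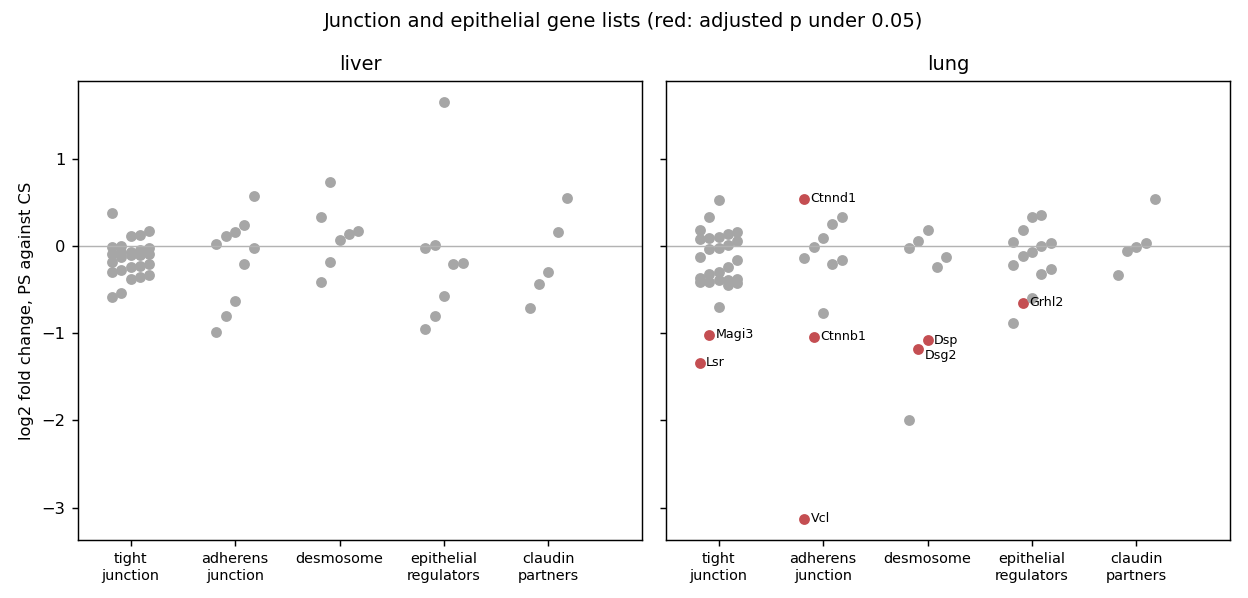
Log2 fold change in PS against CS mice (y axis) of the tested genes of 5 lists of junction, regulator and partner genes (x axis) in liver (left) and lung (right), one point per gene, with genes at an adjusted p under 0.05 in red and named. In lung 7 of 66 genes are red below 0 and Ctnnd1 is red above 0, and in liver none is red.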

How the data were processed

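Per the labels and the methods of the study, poly-A RNA was sequenced on a NovaSeq, and the authors aligned the reads to mm10 with HISAT2 2.0.5, counted them per gene with featureCounts 1.5.0-p3 and used DESeq2 1.20.0. The authors deposited raw counts and FPKM values for 54532 genes. The strand setting of the counting is not given in the sources used here, and Cldn3 shares 40 bases with the antisense gene Wbscr25.

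Diets were compared within each tissue, and tissues and the difference of diet effects in 1 fit over all 15 libraries, with edgeR 4.0.16 (R 4.3.3): TMM scaling, filterByExpr at its defaults and quasi-likelihood tests with robust dispersions, adjusted by Benjamini-Hochberg over all genes tested. An SE is the fold change divided by the square root of F. CPM values are scaled by TMM within a tissue. The fits were tested on simulated data. Of 100 genes changed by 1 on the log2 scale they called 27 for the liver diet, 44 for the lung diet and 61 between tissues. For the difference of diet effects it was 1. Of 100 genes changed by 2 they called 80, 92, 95 and 42 in the same order. A missing call in a diet comparison thus does not show that a change of 1 is absent. Members under the filter had an exact permutation test. Replicate numbers do not mark shared mice within a tissue, whereas mouse pairs the tissues by the labels (correlations of deviations from -0.09 to 0.17).

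Alternatives were DESeq2 1.42.0, its size factors in edgeR, a filter of 10 counts in every library or none, limma 3.58.1 on log2(FPKM + 1) or log2(FPKM + 0.1), removal of the trend with GC content, the replicate block and leaving out each library. Removal of the gene length trend, and of both livers with the fewest genes, were chosen after seeing the data. The members and lists were chosen with earlier results of these data known. Named are the 10 members, claudins with at least 1% of the signal of a tissue, and the listed genes past an adjusted p of 0.05 or with the 3 lowest p-values in a tissue. 1 gene of these lists is not reported here and is in none of the list counts.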

Additional observations from a re-analysis of the deposited data

Results flagged for a closer look

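Single livers stood far from the others of their diet in several members, by Dixon's test, which flags about 1 in 20 groups by chance. Among the 4 CS livers, replicate 2 had the highest Cldn3 (215 CPM, against 106 to 109) and Cldn14 (14.2 CPM, against 5.80 to 6.59) and the lowest Ocln (6.87 CPM, against 12.5 to 13.5). This is the liver with the fewest detected genes and the highest B cell markers.

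Among the 5 PS livers, Cldn4 was at 0.171 CPM in replicate 2 (0.0667% of the claudin signal) and at 0 in the rest. Cldn18 was at 0.0583 CPM in replicate 3 (0.00752% of the signal) and at 0 in the rest, a difference of 1 count. Cldn10, a claudin with 1.42% of the signal in lung, had 9 counts in PS replicate 1 (0.695 CPM, 0.149% of the signal), against 0 to 0.133 CPM in the other PS livers.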

How the results depend on the processing

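In liver 0 members had an adjusted p under 0.05, with 0 to 1 over the fits that left out a library each and 1, Cdh1, without both livers with the fewest genes, a setting chosen after seeing the data. At an unadjusted p of at most 0.05 there were 2, with 0 to 2 over those fits, 0 with limma on either FPKM scale and 3 with no filter. In lung 0 members passed the adjustment, against 1 by DESeq2, 1 with no filter on low counts and 0 to 2 over the fits that left out a library, and the 3 at an unadjusted p became 1 to 5. Between the tissues 10 members were called, and 5 with at least 10 counts in every library, where fewer genes were tested. For the difference of diet effects 1 member had an unadjusted p of at most 0.05, against 2 with DESeq2 size factors, 3 by DESeq2, 3 with no filter, 2 with at least 10 counts, 2 with the trend with gene length removed (chosen after seeing the data), 3 without both livers and 1 to 3 over the fits that left out a library.

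Members near 0 changed sign. In liver Cldn3 was at -0.02 with gene length corrected, Cldn7 at 0.12 on log2(FPKM + 0.1) and at 0.01 without both livers, and Cldn14 at 0.08 without both livers. Over the fits that left out a liver Cldn2 ranged from -0.61 to 0.05, Cldn3 from -0.08 to 0.39, Cldn7 from -0.47 to 0.51, Cldn12 from -0.32 to 0.08 and Cldn14 from -0.39 to 0.15. In lung Cldn5 was at -0.22 with GC content and -0.09 with gene length corrected, and over the fits that left out a lung it ranged from -0.13 to 0.31, Cldn7 from -0.43 to 0.21 and Cldn10 from -0.53 to 0.01. The difference of diet effects in Cldn3 was -0.09 with GC content corrected and ranged from -0.08 to 0.40, and that in Cldn7 was 0.00 with DESeq2 size factors and 0.01 by DESeq2 and ranged from -0.67 to 0.33. The cause was not tested. The mean CPM difference of Cldn4 in liver ranged from -0.404 to -0.127 over the fits that left out a library.

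With the replicate number as a block, 1 member had an unadjusted p of at most 0.05 in liver, and 0 with GC content corrected as well. Same-numbered livers correlated at -0.43 to -0.02 and lungs at -0.02 to 0.07 in their deviations, so the samples share only a number. In the blocked fits Cldn7 in liver was at 0.10, and at 0.17 with GC content corrected. With the block and GC content, Cldn3 was at -0.04 and Cldn5 at -0.21 in lung, and the difference of diet effects in Cldn3 was -0.35. In lung the calls of Grhl2 (adjusted p = 0.0561) and Ctnnd1 (0.0567) were lost with the block. Grhl2 was lost with gene length corrected (0.0619) and on log2(FPKM + 1) and log2(FPKM + 0.1) too (0.0630 and 0.0645), and Ctnnd1 on both FPKM scales (0.0521 and 0.0525). The block changed no other call of a named gene, and Ocln between the tissues was lost only with GC content corrected as well.

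The make-up depends on the division by length. Without it Cldn3 held 46.1% of the claudin counts in liver and 10.3% in lung, and Cldn18 31.7% in lung. The shares of Cldn2, Cldn12 and Cldn1 in liver were then 17.6%, 16.5% and 14.7%, and those of Cldn12 and Cldn1 in lung 1.46% and 0.996%. With the division, Cldn18 held 39.7% of the signal of the 8 member claudins alone. Over all genes edgeR called 1 gene in liver, against 163 by DESeq2, 26 with no filter, 48 without both livers and 0 to 65 over the fits that left out a library. For the difference of diet effects it called 4, against 228 by DESeq2 and 0 with the block. In lung it called 1542, against 3090 by DESeq2 and 0 to 2949 over those fits, with 1061 to 2306 in the rest. Genes with few counts, such as Cldn4 and Cldn18 in liver and Cldn2 in lung, are limited by depth, and intervals cover counting error only.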

Other observations

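Cldn5 and Cldn8 are claudins outside the 10 members. Cldn5, the claudin of endothelial tight junctions, held 4.61%, 3.76%, 2.91% and 4.82% of the claudin signal in CS livers and 0.665%, 2.42%, 0.946%, 1.72% and 2.40% in PS livers, so that the diets did not overlap. Its log2 fold change in liver was -1.42 (SE 0.35, adjusted p = 0.232, edgeR), and in lung its log2 fold change was 0.05 (SE 0.26). The difference between the tissues was 1.43 (SE 0.48, adjusted p = 0.342, edgeR). The 4 leukocyte markers summed to 29.7 to 60.0 CPM in CS and 15.5 to 32.5 CPM in PS livers, and the part of cell composition in the Cldn5 value was not tested.

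Cldn8, a claudin of tight epithelia that was named after its values were seen, had 116, 124 and 168 counts in CS and 31, 10 and 56 counts in PS lungs. Its log2 fold change was -1.96 (SE 0.51, adjusted p = 0.0475, edgeR), and it lost its call in 7 alternatives, among them the GC content correction (adjusted p = 0.0648) and each fit that left out a library other than PS replicate 3 (0.0661 to 0.140). Over all alternatives its log2 fold change ranged from -2.57 without PS replicate 3 to -1.21 with limma on log2(FPKM + 1). The difference of its diet effects between the tissues was -2.79 (SE 0.94, adjusted p = 0.347).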
